A study of Mus musculus with 24 samples.

Results

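Mouse embryonic fibroblasts (MEF) in which the Yamanaka factors had been induced for 6 days, and which divided fast, were compared with untreated bulk MEF across all genes. The fast cycling induced MEF are called fast MEF here. The comparison took 8 of the 24 libraries of the series, 4 of fast MEF and 4 of bulk MEF, chosen by their sample labels. Fast MEF had spent 6 days in embryonic stem cell medium with 15% serum, LIF at 1000 U/ml and doxycycline at 2 µg/ml, which turns the factors on, and were gated by how far CFSE, a dye that every division dilutes, had faded in them within 48 hours. Bulk MEF were kept in DMEM with 10% serum and had no factor induction, dye or speed gate. Their labels call them unsorted and slow cycling, although the protocol written for all libraries has 1000 cells sorted into each well. No strain or genotype is given in the labels, nor the construct or promoter that carries the factors. Factor induction, medium and division gate differ between the groups at the same time, so their parts cannot be told apart. Whether replicates are separate cultures is not stated in the labels, and the p-values then reflect only library to library spread, part or all of which may be technical.

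The Yamanaka factors are Oct4 (encoded by Pou5f1), Sox2, Klf4 and Myc, and together they can turn fibroblasts into induced pluripotent stem cells over some weeks. Early steps known from other studies are faster division, loss of the fibroblast programme of matrix, contractile and mesenchymal genes, and a mesenchymal to epithelial transition in which cells gain E-cadherin junctions. The endogenous pluripotency network usually comes on later, in few cells. Fibroblasts in culture tend towards a contractile state that is driven by Tgf-beta, serum response factor and the Yap and Taz coactivators.

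Cytoplasmic RNA was primed with oligo-dT for reverse transcription, amplified and sequenced. Total counts ran from 4937453 to 10248532 in fast MEF and from 8997774 to 12028033 in bulk MEF. Levels are given as counts per 1000000 (CPM) scaled with TMM factors over these libraries, in the order of replicates 1 to 4, and are not divided by gene length, so they compare libraries and not genes. The shallowest library was fast MEF replicate 3, and its median correlation with the rest of its group was 0.898, against 0.9555 to 0.9615 for the other fast MEF libraries. Bulk MEF replicate 3 held low counts of several genes that were high in fast MEF, such as Sox2 at 4.98 CPM and Dsp at 8.54 CPM, while the other 3 bulk MEF libraries held at most 0.893 CPM of Sox2 and 0.419 CPM of Dsp. The bulk MEF libraries carried fibroblast markers at high levels such as Col1a1, Thy1, Pdgfrb and Vim, together with some RNA of macrophage genes. Another fibroblast marker, Pdgfra, was low in them, at 29.1, 10.1, 5.22 and 7.14 CPM.

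Of 11335 genes tested, 3958 (34.9%) passed the threshold, an adjusted p of 0.05 in edgeR's quasi-likelihood test. In fast MEF 1869 genes (16.5% of those tested) were higher and 2089 (18.4%) were lower. Counts of list members given later are to be read beside these shares. Changes of at least 2-fold were found in 1778 genes (15.7%) upward and 1966 (17.3%) downward. The libraries of the groups did not overlap for 4244 genes (37.4%), with fast MEF above bulk MEF in 2076 (18.3%) and below in 2168 (19.1%). The median log2 fold change was 2.40 among genes that rose and -2.26 among those that fell, against -0.05 over all tested genes. Upper-quartile scaling moved that overall median to 0.07 and the share of higher genes among the calls to 52.4%, against 47.2% with TMM factors. In bulk samples fewer cells of a type and less RNA per cell cannot be told apart, which holds for every result that follows. All errors of log2 fold changes are standard errors, and every adjusted p is from edgeR unless another test is named.

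**Figure D1:**
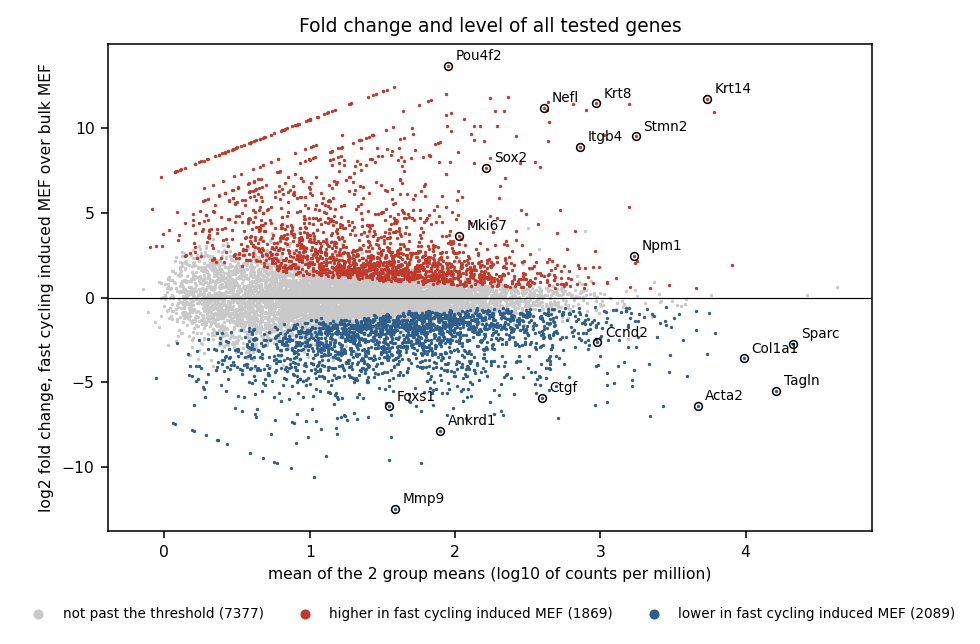
Each point is a tested gene, placed by the mean of its group means (log10 CPM, x axis) and its log2 fold change in fast MEF over bulk MEF (y axis), with 1869 higher genes in red, 2089 lower genes in blue and the rest in grey. Keratin and neuronal genes such as Krt14 (11.70) and Nefl (11.17) lie high on the plot and contractile and matrix genes such as Tagln (-5.51) and Sparc (-2.74) lie low at high levels. The straight rows of points at the top left and bottom left are genes with no count in a group, whose fitted fold changes depend on the prior count.

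**Figure D2:**
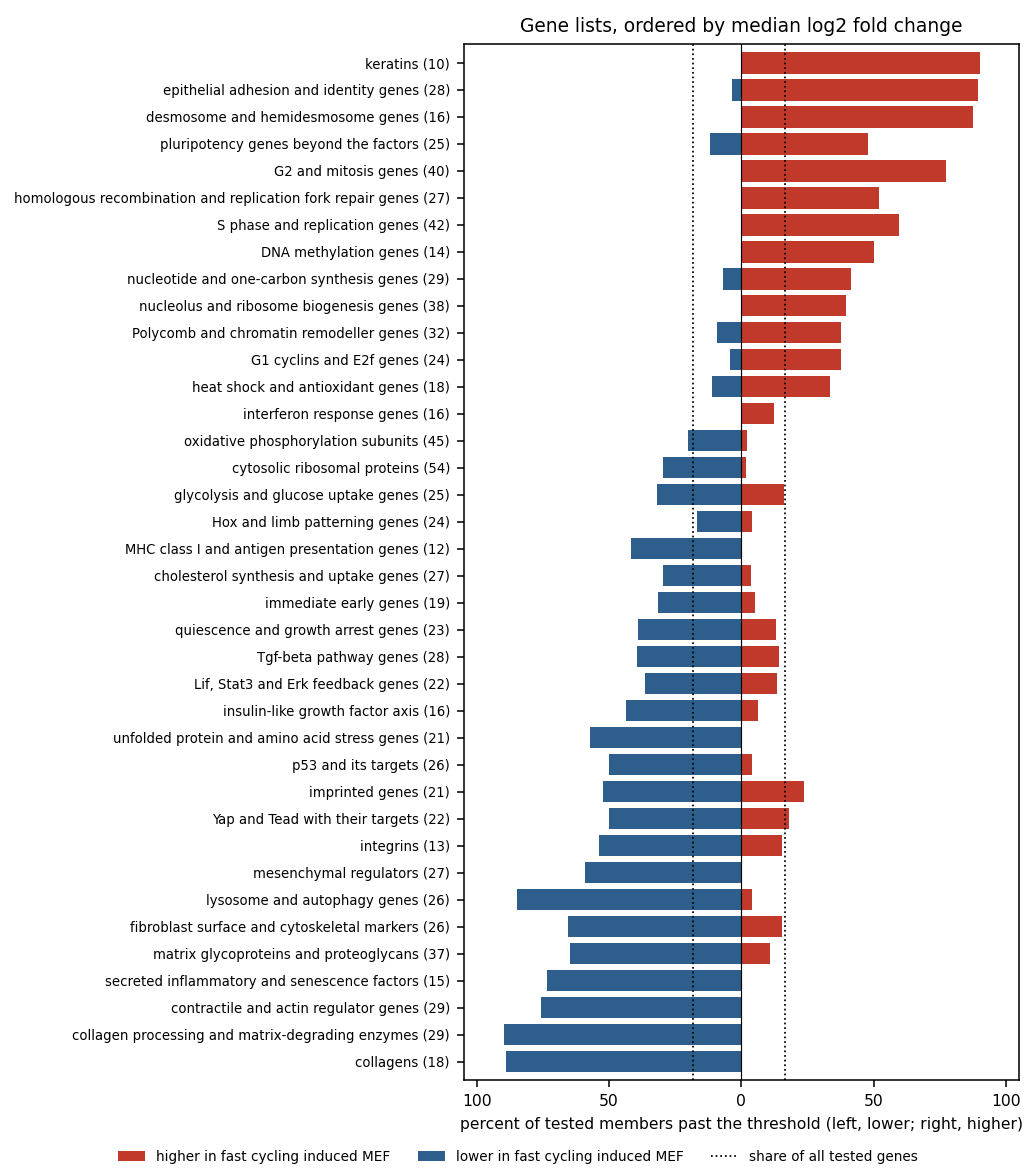
Bars give the percent of tested members of each gene list that were higher (red, to the right) or lower (blue, to the left) in fast MEF than in bulk MEF, with the number of tested members in brackets and lists ordered by median log2 fold change. Dotted lines mark the shares over all tested genes, 16.5% higher and 18.4% lower. Lists with fewer than 10 tested members, such as the macrophage and blood markers, are not drawn. Of the lists drawn, keratins (9 of 10 higher) stand at the top and collagens (16 of 18 lower) at the bottom.

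All 4 factor genes were higher in fast MEF, while Nanog and Dppa4 of the later pluripotency network were near background. The counts do not tell RNA of the induced factors from RNA of the endogenous genes. Sox2, a high mobility group factor of neural and pluripotent cells, had 215, 226, 469 and 399 CPM in fast MEF, against 0.893, 0.419, 4.98 and 0.125 CPM in bulk MEF (log2 fold change 7.67 ± 0.93, adjusted p = 0.00016). Pou5f1, the POU domain factor at the centre of pluripotency, had 21.7, 35.8, 134 and 75.8 CPM in fast MEF, against 0.447, 0.314, 2.61 and 0 CPM in bulk MEF (log2 fold change 6.29 ± 1.06, adjusted p = 0.00124). The lowest fast MEF library lay above the highest bulk MEF library for both genes. Klf4, a zinc finger factor that fibroblasts and epithelia also make, had 461, 554, 1083 and 832 CPM in fast MEF, against 139, 139, 177 and 139 CPM in bulk MEF (log2 fold change 2.31 ± 0.29, adjusted p = 0.0002). Myc, a driver of growth and division, had 673, 749, 805 and 811 CPM in fast MEF, against 111, 117, 294 and 149 CPM in bulk MEF (log2 fold change 2.18 ± 0.32, adjusted p = 0.00052). Fast MEF replicate 3 held the most Pou5f1, Sox2 and Klf4 RNA, and the groups did not overlap for any factor gene. Without bulk MEF replicate 3 the log2 fold changes were 9.35 for Sox2 and 7.92 for Pou5f1.

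Beyond the factors, 25 of 40 pluripotency genes could be tested, of which 12 were higher and 3 lower in fast MEF, with a median log2 fold change of 2.64. Members near 0 in bulk MEF could be tested only where fast MEF held them, so this count and median favour genes that rose. L1td1, an RNA-binding protein of embryonic stem cells, had 71.1, 78.9, 94.2 and 97.3 CPM in fast MEF, against 0, 0.105, 1.42 and 0 CPM in bulk MEF (log2 fold change 7.77 ± 0.999, adjusted p = 0.00023). Sall4, a zinc finger factor that works with Oct4, had 40.8, 46.3, 122 and 36.8 CPM in fast MEF, against 2.12, 0.419, 4.63 and 0.125 CPM in bulk MEF (log2 fold change 5.07 ± 0.93, adjusted p = 0.00203). Tdh, the threonine dehydrogenase that mouse embryonic stem cells depend on, had log2 fold change 4.17 ± 1.01 (adjusted p = 0.00892). Slc2a3, a glucose transporter high in pluripotent cells, had 146, 183, 183 and 177 CPM in fast MEF, against 9.60, 16.9, 7.12 and 12.3 CPM in bulk MEF (log2 fold change 3.91 ± 0.34, adjusted p = 1.9e-05). Each of these was higher in every fast MEF library than in any bulk MEF library. Nanog, a core factor of established pluripotency, was too low to test, with 0.976, 1.31, 3.53 and 0.684 CPM in fast MEF, against 0, 0.21, 0.356 and 0 CPM in bulk MEF. Dppa4 stayed at or under 0.207 CPM in every fast MEF library. Zfp42, which encodes the marker Rex1, had log2 fold change 2.13 ± 1.19 (adjusted p = 0.191), and Utf1 had 0.96 ± 0.77 (adjusted p = 0.364), so neither passed. Limma voom with sample weights called Zfp42 (adjusted p = 0.0427). The 2 lower Klf genes on the list were Klf2, which had 0.683, 0.0934, 0 and 0.427 CPM in fast MEF, against 9.49, 13.1, 31.7 and 11.4 CPM in bulk MEF (log2 fold change -5.60 ± 0.89, adjusted p = 0.00086), and Klf5, which had 8.88, 11.8, 2.49 and 4.27 CPM in fast MEF, against 39.5, 52.0, 40.1 and 32.2 CPM in bulk MEF (log2 fold change -2.57 ± 0.52, adjusted p = 0.00331). Klf2 and Klf5 can act in place of Klf4 in embryonic stem cells. Without bulk MEF replicate 3 the log2 fold changes were 10.70 for L1td1, 6.07 for Sall4 and 5.19 for Tdh, and without fast MEF replicate 1 that of Klf2 was -6.26. In a fit over all 24 libraries Tdh and Klf5 did not pass (adjusted p = 0.0613 and 0.0676).

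Genes of mitosis and of DNA replication were higher in fast MEF as groups. Of 40 G2 and mitosis genes tested, 31 rose and 0 fell, with a median log2 fold change of 2.35, and of 42 S phase genes 25 rose and 0 fell, with a median of 1.52. Mki67, which encodes the proliferation antigen Ki-67, had 177, 226, 151 and 236 CPM in fast MEF, against 21.9, 15.5, 14.0 and 11.1 CPM in bulk MEF (log2 fold change 3.66 ± 0.32, adjusted p = 1.9e-05). Cdc20, an activator of the anaphase-promoting complex, had 199.6, 176, 192 and 193 CPM in fast MEF, against 14.6, 46.1, 16.1 and 8.89 CPM in bulk MEF (log2 fold change 3.15 ± 0.48, adjusted p = 0.00069). Plk1, a kinase that drives entry into mitosis, had 194, 639.6, 443 and 351 CPM in fast MEF, against 55.7, 85.6, 29.8 and 19.7 CPM in bulk MEF (log2 fold change 3.09 ± 0.51, adjusted p = 0.00108). No fast MEF library fell within the bulk MEF range of these genes. Top2a, the topoisomerase that untangles chromosomes, rose by 2.39 ± 0.31 on the log2 scale (adjusted p = 0.00024), and Ube2c, the ubiquitin-conjugating enzyme of the anaphase-promoting complex, rose by 2.96 ± 0.33 (adjusted p = 9.4e-05). Foxm1, the factor that switches on many mitotic genes, rose by 2.44 ± 0.37 (adjusted p = 0.00064), and the cyclins Ccnb1 and Ccna2 rose by 2.45 ± 0.50 and 2.19 ± 0.40 (adjusted p = 0.00384 and 0.00198). Cdk1, the kinase these cyclins activate, had log2 fold change 0.69 ± 0.41 and did not pass (adjusted p = 0.218). Among replication genes, Mcm5, a subunit of the replicative helicase, had 338, 285, 332 and 317 CPM in fast MEF, against 56.3, 42.8, 56.4 and 137 CPM in bulk MEF (log2 fold change 2.12 ± 0.36, adjusted p = 0.00131). Pcna, the sliding clamp of DNA polymerases, had 172, 221, 228 and 170.2 CPM in fast MEF, against 54.5, 51.5, 38.8 and 25.7 CPM in bulk MEF (log2 fold change 2.21 ± 0.30, adjusted p = 0.00033). Mcm2 and Mcm7 rose by 2.39 ± 0.42 and 1.31 ± 0.28 (adjusted p = 0.00154 and 0.0045), Cdc6, which loads the helicase, by 2.76 ± 0.71 (adjusted p = 0.012), and Chaf1a, a histone chaperone of replicating chromatin, by 2.71 ± 0.40 (adjusted p = 0.00051). Rrm2, the regulatory subunit of ribonucleotide reductase, had 121, 111, 86.3 and 102 CPM in fast MEF, against 74.6, 33.6, 38.8 and 40.0 CPM in bulk MEF (log2 fold change 1.17 ± 0.32, adjusted p = 0.0164). The log2 fold change was 3.84 for Cdc20 without bulk MEF replicate 2 and 3.69 for Cdc6 without bulk MEF replicate 4. In a fit over all 24 libraries 21 of the mitosis genes and 8 of the S phase genes rose, and Foxm1, Mcm5, Mcm7, Cdc6 and Rrm2 did not pass (adjusted p = 0.0602, 0.0672, 0.272, 0.0853 and 0.095).

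Promoters of these genes are shown because the members moved together, and they carry letters known from cell cycle promoters. The sequences are from RefSeq on GRCm38.p6, are read 5′ to 3′ on the gene's strand, and each covers 150 of the 250 bases listed upstream of a start site. For each gene the first listed start site whose window held a match was taken, so every window shown holds the marked letters. Capitals mark CCAAT, the box bound by NF-Y, and TTTGAA, the core of the cell cycle homology region, on either strand, with overlaps allowed. The 3 mitotic genes lie at chr4:118437344-118437493 on the minus strand (Cdc20), chr2:164769779-164769928 on the plus strand (Ube2c) and chr11:99024190-99024339 on the minus strand (Top2a), each of these 3 windows ending just before the start site.
Cdc20: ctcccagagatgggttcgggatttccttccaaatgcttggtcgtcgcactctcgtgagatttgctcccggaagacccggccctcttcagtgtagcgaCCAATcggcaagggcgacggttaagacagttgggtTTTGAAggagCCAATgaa
Ube2c: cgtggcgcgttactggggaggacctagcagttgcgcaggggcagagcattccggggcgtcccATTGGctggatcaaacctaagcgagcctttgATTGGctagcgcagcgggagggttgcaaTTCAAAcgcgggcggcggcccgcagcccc
Top2a: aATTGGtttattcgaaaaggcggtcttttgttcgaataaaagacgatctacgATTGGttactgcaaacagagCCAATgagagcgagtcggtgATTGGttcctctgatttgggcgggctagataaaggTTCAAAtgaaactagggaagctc
The TTTGAA letters begin 18, 29 and 23 bases before the start site of Cdc20, Ube2c and Top2a, and a CCAAT box lies 53, 57 and 58 bases before it. For the S phase genes the capitals mark the E2f letters TTTGGCGC, TTTCCCGC or TTTCGCGC on either strand, in windows at chr11:98907971-98908120 on the plus strand (Cdc6) and chr5:138171914-138172063 on the minus strand (Mcm7).
Cdc6: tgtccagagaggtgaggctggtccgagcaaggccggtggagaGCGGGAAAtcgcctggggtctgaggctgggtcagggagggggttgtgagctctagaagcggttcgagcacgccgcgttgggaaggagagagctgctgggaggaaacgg
Mcm7: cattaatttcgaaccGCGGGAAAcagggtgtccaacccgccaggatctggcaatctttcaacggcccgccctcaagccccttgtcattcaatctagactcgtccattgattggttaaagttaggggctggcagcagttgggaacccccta
Those letters begin 138 bases before the start site of Cdc6 and 165 bases before that of Mcm7. Promoters of 300 bases (250 before the start site and 50 after it) were listed for 34 of the 40 mitosis genes, 36 promoters in all. CCAAT was found in 28 of these (77.8%), against 37.4% of all 32851 listed promoters, and TTTGAA in 25 (69.4%), against 17.9%. Of the 36 promoters of 32 S phase genes, 13 (36.1%) held the E2f letters, against 1.84% of all promoters. These shares are a description of lists chosen by function, and a match is not a shown binding site.

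The G1 machinery changed gene by gene, and inhibitors of cyclin-dependent kinases were lower. Of 24 G1 cyclin and E2f genes 9 rose and 1 fell, with a median log2 fold change of 0.51. Ccnd1, the cyclin D1 gene that growth factors induce, had 1136, 1187, 2293 and 1449 CPM in fast MEF, against 650.1, 330.0, 304 and 462 CPM in bulk MEF (log2 fold change 1.796 ± 0.31, adjusted p = 0.00145). Ccnd2, the cyclin D2 gene, moved the other way, and had 193, 269.6, 305 and 289 CPM in fast MEF, against 1208, 1742, 1719 and 1905 CPM in bulk MEF (log2 fold change -2.64 ± 0.23, adjusted p = 1.7e-05). The 2 cyclin D genes did not overlap between the groups in either direction. Cdk6, a kinase partner of D cyclins, rose by 4.29 ± 0.70 (adjusted p = 0.00103), Ccne2, a cyclin of the entry into S phase, by 3.47 ± 0.67 (adjusted p = 0.00261), and Rbl1, a relative of the retinoblastoma protein, by 3.55 ± 0.60 (adjusted p = 0.00128). Of 6 inhibitor genes tested, 4 fell and 0 rose, with a median of -3.05. Cdkn2b, which encodes p15, a Tgf-beta target, had 9.17, 6.63, 2.70 and 3.08 CPM in fast MEF, against 162, 234, 100.2 and 124 CPM in bulk MEF (log2 fold change -4.83 ± 0.50, adjusted p = 6e-05). Cdkn1c, the imprinted p57 gene, had 1.56, 2.43, 0.415 and 1.28 CPM in fast MEF, against 39.3, 53.6, 45.3 and 16.2 CPM in bulk MEF (log2 fold change -4.71 ± 0.62, adjusted p = 0.00027). Cdkn1a, which encodes p21, had 2573, 1640.1, 1677 and 1993 CPM in fast MEF, against 4915, 4318, 3332 and 5406 CPM in bulk MEF (log2 fold change -1.19 ± 0.21, adjusted p = 0.00162). All fast MEF libraries lay below all bulk MEF libraries for these 3 genes. Cdkn1b, which encodes p27, had 2.83, 1.77, 2.90 and 0.598 CPM in fast MEF, against 75.0, 43.0, 1.78 and 5.64 CPM in bulk MEF (log2 fold change -3.97 ± 1.07, adjusted p = 0.0156). The bulk MEF libraries spread widely for it and overlapped fast MEF, and the change did not pass in limma voom with sample weights (adjusted p = 0.0684). The log2 fold change of Cdkn1b was -3.06 without bulk MEF replicate 1 (adjusted p = 0.0497). Cdkn2a, the Ink4a and Arf locus, was low in both groups and had log2 fold change -0.80 ± 0.98 (adjusted p = 0.559), and Cdkn2c had -2.13 ± 0.76 (adjusted p = 0.0509, and 0.0345 in DESeq2).

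Targets of p53 were lower more often than higher. Of 26 genes of the p53 list, 13 fell and 1 rose, with a median log2 fold change of -1.10, although in a fit over all 24 libraries 1 fell. Mdm2, the ubiquitin ligase that p53 induces against itself, had 23.4, 29.4, 15.6 and 31.6 CPM in fast MEF, against 106, 87.0, 104 and 117 CPM in bulk MEF (log2 fold change -2.05 ± 0.31, adjusted p = 0.00065). Plk3, a stress kinase, fell by 2.63 ± 0.45 on the log2 scale (adjusted p = 0.00132), Ccng1 fell by 1.48 ± 0.28 (adjusted p = 0.00254) and the cell death gene Bax fell by 1.23 ± 0.30 (adjusted p = 0.00987). Trp53 itself had 254, 213, 238 and 222 CPM in fast MEF, against 382, 356, 458 and 324 CPM in bulk MEF (log2 fold change -0.71 ± 0.20, adjusted p = 0.0175). It did not pass without fast MEF replicate 2 (adjusted p = 0.07). The member that rose was Perp, a p53 target that is also a desmosome protein, which had 207, 242, 177 and 200.3 CPM in fast MEF, against 7.81, 0.629, 0.593 and 1.25 CPM in bulk MEF (log2 fold change 6.32 ± 0.83, adjusted p = 0.00027). Without bulk MEF replicate 1 its log2 fold change was 7.95. Among 23 quiescence and growth arrest genes 9 fell and 3 rose, against 18.4% and 16.5% of all tested genes, and 5 fell without fast MEF replicate 2. Txnip, an inhibitor of thioredoxin and of glucose uptake, had 8.69, 3.55, 2.28 and 6.497 CPM in fast MEF, against 163, 91.7, 74.6 and 197 CPM in bulk MEF (log2 fold change -4.62 ± 0.53, adjusted p = 0.00011). Klf6, a zinc finger growth suppressor, fell by 2.17 ± 0.30 (adjusted p = 0.00034), while Tob1, an antiproliferative gene, rose by 1.63 ± 0.36 (adjusted p = 0.00581). In the fit over all 24 libraries Cdkn1a, Trp53, Mdm2, Bax, Ccng1, Plk3, Tob1 and Ccne2 did not pass, with adjusted p from 0.0534 for Ccne2 to 0.33 for Trp53.

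Some repair and growth genes rose and few fell, while more ribosomal protein genes fell than rose. Of 27 genes of homologous recombination and fork repair 14 rose and 0 fell, with a median log2 fold change of 2.15. Brca1, the recombination mediator, had 20.1, 20.4, 12.7 and 18.0 CPM in fast MEF, against 0.223, 0.629, 1.66 and 0.251 CPM in bulk MEF (log2 fold change 4.66 ± 0.73, adjusted p = 0.00073). Chek1, the replication checkpoint kinase, rose by 3.74 ± 0.65 (adjusted p = 0.00147) and Fancd2, of the Fanconi anaemia pathway, by 3.92 ± 1.03 (adjusted p = 0.0134). Of 38 nucleolus and ribosome biogenesis genes 15 rose and 0 fell, with a median of 0.83. Npm1, an abundant nucleolar chaperone, had 2334, 3348, 2877 and 2995 CPM in fast MEF, against 619, 696, 415 and 401 CPM in bulk MEF (log2 fold change 2.44 ± 0.23, adjusted p = 3.5e-05). Ncl, which encodes nucleolin, rose by 1.93 ± 0.21 (adjusted p = 7.4e-05) and the RNA helicase Ddx21 by 1.09 ± 0.22 (adjusted p = 0.00365). Of 29 genes of nucleotide and one-carbon synthesis 12 rose and 2 fell, while 0 or 1 gene fell when any single library was left out. Cad, the enzyme that starts pyrimidine synthesis, had 236, 241, 531 and 281 CPM in fast MEF, against 25.3, 22.6, 148 and 51.5 CPM in bulk MEF (log2 fold change 2.38 ± 0.59, adjusted p = 0.0105). Paics, of purine synthesis, rose by 1.50 ± 0.27 (adjusted p = 0.00168), and Odc1, the first enzyme of polyamine synthesis and a Myc target, by 2.09 ± 0.32 (adjusted p = 0.00064). Of 54 cytosolic ribosomal protein genes 16 fell and 1 rose, with a median of -0.41. Rps2 had 4046, 3581, 4159 and 3902 CPM in fast MEF, against 6262, 8343, 6269.9 and 8106 CPM in bulk MEF (log2 fold change -0.89 ± 0.16, adjusted p = 0.00164). Rps6 and Rps3 did not pass, with log2 fold changes of 0.23 ± 0.23 and -0.39 ± 0.21 (adjusted p = 0.466 and 0.175). Ribosomal protein genes have many near-identical pseudogenes, so their counts are uncertain. Without bulk MEF replicate 3 the log2 fold change was 5.53 for Brca1 and 3.28 for Cad, and that of Fancd2 was 4.87 without bulk MEF replicate 4. In the fit over all 24 libraries 5 repair genes, 6 nucleolus genes and 4 nucleotide synthesis genes rose and 2 ribosomal protein genes fell, and Fancd2, Ddx21, Paics and Rps2 did not pass (adjusted p = 0.129, 0.0892, 0.0592 and 0.154).

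Most epithelial genes that could be tested were higher in fast MEF. Of 36 epithelial adhesion and identity genes 28 could be tested. Of these, 25 were higher and 1 lower in fast MEF, with a median log2 fold change of 5.84. Of 14 keratins 10 could be tested and 9 were higher, with a median of 10.98. Of 17 desmosome and hemidesmosome genes 16 could be tested and 14 were higher, with a median of 5.83. A gene near 0 in bulk MEF could be tested only where fast MEF held it, so these counts favour genes that rose. Genes with no count in bulk MEF, 3, 0 and 1 in these lists, were also set at their lower bounds. The medians stayed at 5.84, 10.98 and 5.83, which does not bear on members that could not be tested. Cdh1, which encodes E-cadherin, had 171, 223, 239 and 201 CPM in fast MEF, against 0.558, 1.05, 0.475 and 0 CPM in bulk MEF (log2 fold change 8.58 ± 0.64, adjusted p = 6.8e-06). Epcam, an epithelial adhesion molecule, had 16.1, 28.6, 37.7 and 28.6 CPM in fast MEF, against 0, 0.105, 0.119 and 0 CPM in bulk MEF, where it rested on 2 counts, a ratio of 460.2 with a 95% interval of 127 to 3805. Crb3, of the apical Crumbs complex, had 467, 284, 397 and 355 CPM in fast MEF, against 0.223, 0.419, 0 and 0 CPM in bulk MEF (log2 fold change 11.001 ± 0.66, adjusted p = 1.5e-06). The bulk MEF libraries were at or near 0 for each of these 3 genes. Esrp1, the splicing factor that sets epithelial exons, had 21.9, 35.0, 31.3 and 38.2 CPM in fast MEF, against 0, 0, 0.237 and 0.251 CPM in bulk MEF (log2 fold change 7.92 ± 0.83, adjusted p = 6.2e-05). Ehf, an epithelial Ets factor, had 101, 87.2, 63.9 and 84.4 CPM in fast MEF, against 0, 0.105, 0.237 and 0.125 CPM in bulk MEF (log2 fold change 9.35 ± 0.60, adjusted p = 2e-06). Spint2, a protease inhibitor of epithelial membranes, rose by 4.80 ± 0.47 (adjusted p = 4e-05), and the tight junction genes Cldn4 and Ocln by 5.48 ± 0.85 and 5.55 ± 1.05 (adjusted p = 0.00075 and 0.00243). The lower member was Cdh3, which encodes P-cadherin, and it had 8.49, 7.19, 4.36 and 4.45 CPM in fast MEF, against 74.1, 76.3, 68.1 and 70.2 CPM in bulk MEF (log2 fold change -3.55 ± 0.37, adjusted p = 5.2e-05). Without bulk MEF replicate 2 the log2 fold change of Crb3 was 11.99, and Ocln did not pass in the fit over all 24 libraries (adjusted p = 0.0577).

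Keratins are the intermediate filament proteins of epithelia, made in pairs of a type I and a type II chain. Krt14, a type I keratin of basal epidermis, had 11222, 6852, 13971 and 11529 CPM in fast MEF, against 1.79, 7.76, 1.78 and 1.63 CPM in bulk MEF (log2 fold change 11.70 ± 0.70, adjusted p = 1.5e-06). Krt17, a type I keratin of activated and appendage epithelium, had 11955, 7478, 18038 and 11254 CPM in fast MEF, against 2.23, 15.2, 2.61 and 4.26 CPM in bulk MEF (log2 fold change 10.96 ± 0.80, adjusted p = 5.6e-06). Krt16, a type I keratin of activated epithelium, had 1745, 1234, 1537 and 1864 CPM in fast MEF, against 0.558, 1.26, 0.475 and 0.626 CPM in bulk MEF (log2 fold change 11.05 ± 0.39, adjusted p = 9.3e-08). Krt8, the type II keratin of simple epithelia, had 2025, 1542, 2129 and 1728 CPM in fast MEF, against 0.112, 1.36, 0.475 and 0.626 CPM in bulk MEF (log2 fold change 11.45 ± 0.57, adjusted p = 6.5e-07). Every fast MEF library lay far above every bulk MEF library for these keratins. Their usual partners did not all follow. Krt5, the type II partner of Krt14 in basal epidermis, was too low to test, with 0.878, 0.373, 1.24 and 0.171 CPM in fast MEF, against 0, 0, 0.237 and 0 CPM in bulk MEF. Krt18, the type I partner of Krt8, had 7.42, 9.15, 14.1 and 30.1 CPM in fast MEF, against 17.6, 12.5, 5.70 and 52.0 CPM in bulk MEF, and did not pass (log2 fold change -0.53 ± 0.70, adjusted p = 0.59), with a value of 0.34 without bulk MEF replicate 4. Krt6b, a type II keratin of activated epithelium, had 421, 353, 606 and 465 CPM in fast MEF, against 0, 0.105, 0.356 and 0 CPM in bulk MEF (log2 fold change 11.81 ± 0.64, adjusted p = 8.2e-07). Krt19, a type I keratin without a fixed partner, had 362, 249, 519 and 371 CPM in fast MEF, against 3.80, 16.3, 35.6 and 3.13 CPM in bulk MEF (log2 fold change 4.67 ± 0.75, adjusted p = 0.00092). Keratin genes have near-identical copies whose reads the counting could split, so values of single keratins are uncertain. The log2 fold changes without bulk MEF replicate 2 were 12.60 for Krt14, 11.96 for Krt17 and 12.13 for Krt8, and without bulk MEF replicate 3 they were 5.58 for Krt19 and 13.13 for Krt6b.

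Desmosomes tie keratin filaments of neighbouring cells together, and hemidesmosomes tie them to the basement membrane. Dsp, which encodes the linker desmoplakin, had 525, 586, 554 and 565 CPM in fast MEF, against 0, 0.419, 8.54 and 0.125 CPM in bulk MEF (log2 fold change 7.94 ± 1.25, adjusted p = 0.00082). Dsc2, the cadherin desmocollin 2, had 68.4, 82.0, 38.8 and 65.8 CPM in fast MEF, against no count in any bulk MEF library, which is at least 787-fold higher when bulk MEF is set at a floor of 3 counts over its 4 libraries. Dsg2, the cadherin desmoglein 2, had 20.7, 22.1, 11.6 and 34.3 CPM in fast MEF and 1 count in all of bulk MEF, a ratio of 844 with a 95% interval of 151 to 33369.6. These intervals and bounds cover counting error only, since amplified reads are not independent molecules. Pkp1, which encodes plakophilin 1, had 495, 577, 551 and 468 CPM in fast MEF, against 0.223, 0.419, 2.02 and 0.125 CPM in bulk MEF (log2 fold change 9.53 ± 0.71, adjusted p = 6.8e-06). Pkp2, its relative that other tissues also use, had 30.5, 30.1, 26.1 and 24.6 CPM in fast MEF, against 41.3, 46.3, 22.3 and 34.8 CPM in bulk MEF (log2 fold change -0.38 ± 0.34, adjusted p = 0.423) and did not pass. Evpl, which encodes envoplakin, had 194, 149, 232 and 180.3 CPM in fast MEF and 3 counts in all of bulk MEF, a ratio of 2114 with a 95% interval of 723 to 10254. Jup, which encodes plakoglobin and was already present in bulk MEF, had 1538, 991, 1164 and 1117 CPM in fast MEF, against 432, 231, 459 and 317 CPM in bulk MEF (log2 fold change 1.74 ± 0.26, adjusted p = 0.00053). The 2 integrin chains of hemidesmosomes rose, and Itgb4 had 1379.8, 1402, 1382 and 1656 CPM in fast MEF, against 8.60, 1.26, 0.593 and 1.75 CPM in bulk MEF (log2 fold change 8.89 ± 0.81, adjusted p = 2.6e-05), while Itga6 had 427, 555, 432 and 555 CPM in fast MEF, against 38.7, 10.5, 46.3 and 32.4 CPM in bulk MEF (log2 fold change 3.94 ± 0.42, adjusted p = 7.5e-05). The spread within fast MEF was small for Dsp and Pkp1, and the groups did not overlap for any of the junction genes named here other than Pkp2. The log2 fold change was 11.44 for Dsp and 10.88 for Pkp1 without bulk MEF replicate 3, and 10.22 for Itgb4 without bulk MEF replicate 1. Jup did not pass in the fit over all 24 libraries (adjusted p = 0.0824).

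**Figure D3:**
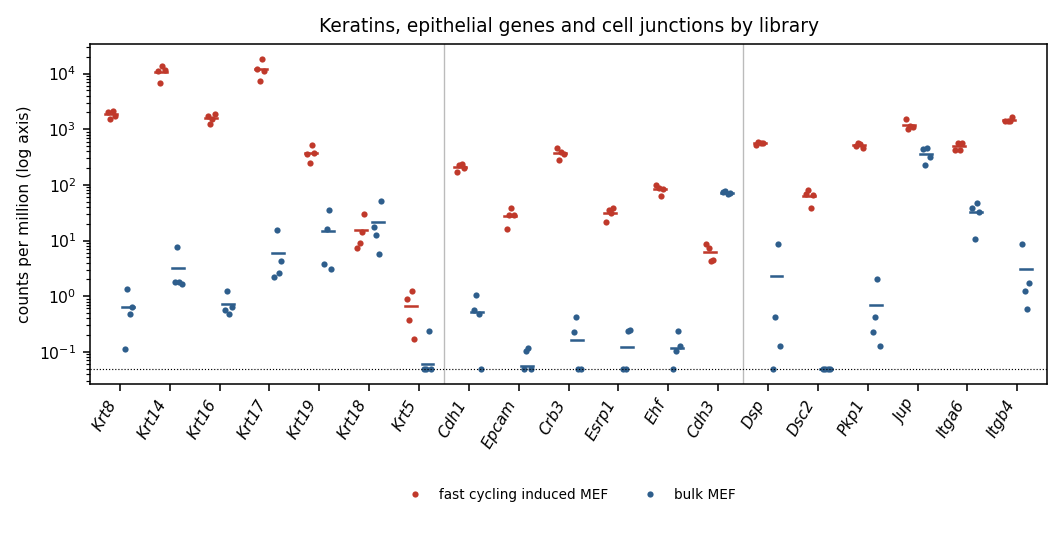
Points are the CPM of each library on a log axis, with fast MEF in red to the left and bulk MEF in blue to the right of each gene, short lines are group means, and values under the dotted line at 0.05 CPM, zeros included, are drawn on it. Krt14 is far higher in every fast MEF library, Krt18 overlaps between the groups, Krt5 is low in both and Cdh3 is lower in fast MEF.

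Most of the mesenchymal regulators tested were lower in fast MEF. Of 27 mesenchymal regulators tested, 16 fell and 0 rose, with a median log2 fold change of -2.0. Zeb2, a repressor of E-cadherin, had 7.51, 6.44, 12.03 and 4.45 CPM in fast MEF, against 51.0, 39.5, 57.3 and 57.9 CPM in bulk MEF (log2 fold change -2.77 ± 0.41, adjusted p = 0.00054). Twist2, a basic helix-loop-helix factor of mesenchyme, had 10.2, 10.9, 20.9 and 22.9 CPM in fast MEF, against 134, 160.1, 187 and 136 CPM in bulk MEF (log2 fold change -3.25 ± 0.36, adjusted p = 8.7e-05). Prrx1, a homeobox factor of limb and body wall mesenchyme, had 46.3, 71.8, 69.9 and 74.9 CPM in fast MEF, against 405, 373, 455 and 200.1 CPM in bulk MEF (log2 fold change -2.45 ± 0.31, adjusted p = 0.00019). No fast MEF library reached the bulk MEF range of these genes. Zeb1 and Twist1 fell, with log2 fold changes of -2.03 ± 0.53 and -2.10 ± 0.53 (adjusted p = 0.0131 and 0.0113), and Foxs1, a forkhead factor of perivascular cells, fell by 6.41 ± 0.66 (adjusted p = 5.2e-05). Snai2, which encodes Slug, another repressor of E-cadherin, had 3.61, 3.73, 41.3 and 2.22 CPM in fast MEF, against 16.4, 21.0, 24.0 and 16.9 CPM in bulk MEF, and did not pass (adjusted p = 0.595). Replicate 3 alone of fast MEF was high for Snai2, and without it the log2 fold change was -2.53 (adjusted p = 0.00327). In the fit over all 24 libraries 4 of the regulators fell, and Zeb1, Zeb2, Twist1 and Twist2 did not pass (adjusted p = 0.0934, 0.0681, 0.0915 and 0.0956). Without fast MEF replicate 4 the log2 fold change of Foxs1 was -7.42.

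Of 28 Tgf-beta pathway genes 11 fell and 4 rose, with a median log2 fold change of -0.69, and 2 rose without fast MEF replicate 4. The share that rose was near the 16.5% of all tested genes. Among the ligands, Tgfb3 had 22.4, 19.6, 3.73 and 32.7 CPM in fast MEF, against 1015, 691, 876 and 887 CPM in bulk MEF (log2 fold change -5.45 ± 0.56, adjusted p = 5.2e-05), and Tgfb1 had 2.15, 5.32, 9.33 and 17.1 CPM in fast MEF, against 109.8, 159, 162 and 235 CPM in bulk MEF (log2 fold change -4.29 ± 0.60, adjusted p = 0.00037). Both ligand genes were several-fold lower in every fast MEF library than in any bulk MEF library. The latent Tgf-beta binding proteins, which store the ligands in the matrix, were lower as well, with Ltbp2 at 2.24, 5.32, 1.45 and 4.02 CPM in fast MEF, against 152, 149, 338 and 258 CPM in bulk MEF (log2 fold change -6.07 ± 0.51, adjusted p = 1.7e-05), and with a log2 fold change of -3.03 ± 0.24 for Ltbp1 (adjusted p = 1e-05). Smad7, an inhibitor that the pathway induces against itself, fell by 2.27 ± 0.31 (adjusted p = 0.0003), which did not pass in the fit over all 24 libraries (adjusted p = 0.132). Without fast MEF replicate 4 the log2 fold change of Tgfb1 was -4.92.

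Nearly all collagen genes and matrix enzymes measured were lower in fast MEF. Of 18 collagens 16 fell and 0 rose, with a median log2 fold change of -3.77, and of 29 collagen processing and matrix-degrading enzymes 26 fell and 0 rose, with a median of -3.00. Among 37 matrix glycoproteins and proteoglycans 24 fell and 4 rose, with a median of -2.48. Col1a1, the main chain of fibrillar type I collagen, had 1024, 1017, 2809.9 and 1145 CPM in fast MEF, against 11808, 23322, 25532 and 11213 CPM in bulk MEF (log2 fold change -3.58 ± 0.43, adjusted p = 0.00015). Col1a2, its partner chain, had 633, 565, 2176 and 556 CPM in fast MEF, against 8340.4, 8998, 14631 and 7824 CPM in bulk MEF (log2 fold change -3.34 ± 0.48, adjusted p = 0.00045). Replicate 3 of fast MEF held the most RNA of both chains in its group, and without it the log2 fold change of Col1a2 was -4.00. Col4a1, of basement membrane, fell by 3.93 ± 0.27 (adjusted p = 3.6e-06), Col6a1, of microfibrils, fell by 2.49 ± 0.18 (adjusted p = 5.5e-06) and Col3a1, of reticular fibres, fell by 2.36 ± 0.35 (adjusted p = 0.00057). Fn1, which encodes fibronectin, had 97.2, 49.6, 142 and 61.0 CPM in fast MEF, against 2347, 2377, 6122 and 2096 CPM in bulk MEF (log2 fold change -5.21 ± 0.49, adjusted p = 3.2e-05). Sparc, which binds collagens outside the cell, had 6463, 5073, 5645 and 4968 CPM in fast MEF, against 38243, 39836, 33734 and 36455 CPM in bulk MEF (log2 fold change -2.74 ± 0.14, adjusted p = 7.2e-07). Thbs1, an activator of latent Tgf-beta, fell by 4.64 ± 0.29 (adjusted p = 1.9e-06), and Tnc, Postn and the proteoglycan Bgn had log2 fold changes of -4.67 ± 0.45, -3.73 ± 0.27 and -3.38 ± 0.20 (adjusted p = 3.5e-05, 4.5e-06 and 1.2e-06). Dcn, which encodes the proteoglycan decorin, did not pass, with 70.6, 77.5, 49.8 and 67.0 CPM in fast MEF, against 63.1, 36.6, 37.9 and 59.3 CPM in bulk MEF. The members that rose included 2 laminin chains of epithelial basement membranes, Lama1, which had 38.5, 68.9, 30.5 and 46.3 CPM in fast MEF, against 1.12, 1.26, 0.712 and 0 CPM in bulk MEF (log2 fold change 5.86 ± 0.78, adjusted p = 0.0003), and Lama5, which had 68.5, 80.0, 65.1 and 101 CPM in fast MEF, against 9.27, 20.5, 22.7 and 2.13 CPM in bulk MEF (log2 fold change 2.53 ± 0.61, adjusted p = 0.00855). Lama5 did not pass in the fit over all 24 libraries (adjusted p = 0.0956).

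Among the enzymes, Lox, which crosslinks collagen and elastin, had 30.1, 34.5, 31.5 and 21.6 CPM in fast MEF, against 801, 671, 645 and 781 CPM in bulk MEF (log2 fold change -4.62 ± 0.24, adjusted p = 7.2e-07). Serpinh1, the chaperone of procollagen, had 580.4, 502, 868 and 511 CPM in fast MEF, against 3705, 3408, 2907 and 2147 CPM in bulk MEF (log2 fold change -2.31 ± 0.25, adjusted p = 7.5e-05). Mmp14, a membrane-bound metalloproteinase, had 198, 191, 79.6 and 209 CPM in fast MEF, against 1886, 1956, 1699 and 1728 CPM in bulk MEF (log2 fold change -3.42 ± 0.30, adjusted p = 2.1e-05). Every fast MEF library lay below the bulk MEF range for these enzymes. Mmp2, a gelatinase, fell by 3.75 ± 0.31 (adjusted p = 1.2e-05), and Mmp13, a collagenase, did not pass, with a log2 fold change of 1.13 ± 0.72 (adjusted p = 0.25). Mmp9, a gelatinase of migrating cells and macrophages, had no count in any fast MEF library, against 92.5, 141, 26.0 and 50.2 CPM in bulk MEF, at least 999.8-fold lower. Macrophage and blood markers moved with it. Of 22 such markers 9 could be tested, of which 6 were lower and 0 higher in fast MEF. Markers near 0 in fast MEF could be tested only where bulk MEF held them, so this count favours genes that fell. Their summed level was 17.8 to 42.8 CPM in fast MEF and 244.7 to 408.8 CPM in bulk MEF, and Aif1, Hba-a1 and Hbb-b1 were at 0 in fast MEF. The part of macrophage RNA in the Mmp9 result was not tested.

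Contractile genes were lower in fast MEF. Of 29 contractile and actin regulator genes 22 fell and 0 rose, with a median log2 fold change of -2.90. Acta2, the smooth muscle actin of myofibroblasts, had 146, 111, 122 and 67.9 CPM in fast MEF, against 9061, 10068, 7535 and 10289 CPM in bulk MEF (log2 fold change -6.37 ± 0.28, adjusted p = 3.8e-07). Tagln, the actin-binding protein transgelin, had 693, 393, 1451 and 262 CPM in fast MEF, against 28308, 40876, 25549 and 32901 CPM in bulk MEF (log2 fold change -5.51 ± 0.53, adjusted p = 3.5e-05). Myl9, a regulatory light chain of non-muscle and smooth muscle myosin, had 84.5, 80.4, 31.3 and 57.2 CPM in fast MEF, against 5446, 5539.8, 4657 and 5725 CPM in bulk MEF (log2 fold change -6.40 ± 0.34, adjusted p = 8.2e-07). The highest fast MEF library stayed far below the lowest bulk MEF library for each. Cnn1, which encodes calponin, had 106, 4.67, 5.81 and 4.70 CPM in fast MEF, against 2027, 2788, 1844 and 2102 CPM in bulk MEF (log2 fold change -6.16 ± 1.12, adjusted p = 0.00197), and fast MEF replicate 1 alone was high, with a log2 fold change of -8.77 without it. Cnn2 and Tpm1 fell, with log2 fold changes of -4.00 ± 0.20 and -4.37 ± 0.26 (adjusted p = 6.5e-07 and 1.4e-06), and Vcl, which encodes vinculin of focal adhesions, had 77.0, 85.5, 74.0 and 101 CPM in fast MEF, against 616, 615, 728 and 556 CPM in bulk MEF (log2 fold change -2.90 ± 0.21, adjusted p = 5.4e-06). Myh9, the heavy chain of non-muscle myosin, fell by 1.35 ± 0.28 (adjusted p = 0.00423), which did not pass in the fit over all 24 libraries (adjusted p = 0.17). Actin genes share near-identical coding sequence, so the values of Acta2 are uncertain to that extent.

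Yap and Taz are coactivators that enter the nucleus under tension and act through Tead factors. Yap1 and Wwtr1, which encode them, did not pass, with log2 fold changes of -0.31 ± 0.28 and -0.60 ± 0.24 (adjusted p = 0.414 and 0.0719, and 0.0498 for Wwtr1 in limma voom with sample weights). Of 22 genes of the Yap and Tead list 11 fell and 4 rose, with a median of -1.20. The share that rose was near the 16.5% of all tested genes. Ctgf, a secreted matricellular target, had 14.3, 11.8, 10.4 and 14.4 CPM in fast MEF, against 844, 684, 788 and 807 CPM in bulk MEF (log2 fold change -5.94 ± 0.24, adjusted p = 2.3e-07). Ankrd1, a nuclear stress target, had 0.781, 1.68, 0 and 0 CPM in fast MEF, against 191, 149.8, 134 and 151 CPM in bulk MEF (log2 fold change -7.85 ± 0.90, adjusted p = 0.00012). Cyr61, a matricellular target of the same family as Ctgf, had 232, 333, 246 and 246 CPM in fast MEF, against 1159, 1118, 1023 and 1222 CPM in bulk MEF (log2 fold change -2.10 ± 0.19, adjusted p = 2.6e-05). The fast MEF libraries lay below bulk MEF in each case, while Nt5e, the ectonucleotidase CD73, rose and had 29.9, 46.5, 40.7 and 42.1 CPM in fast MEF, against 0.67, 0.838, 0.475 and 0.251 CPM in bulk MEF (log2 fold change 6.11 ± 0.52, adjusted p = 1.7e-05). Axl, a receptor tyrosine kinase, fell by 3.78 ± 0.37 (adjusted p = 3.7e-05). Without fast MEF replicate 2 the log2 fold change of Ankrd1 was -8.94.

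Promoters of contractile and Yap target genes are shown for the letters that their known regulators read. Here too the first listed start site whose window held a match was taken. For 3 contractile genes, capitals mark the CArG box of serum response factor, in windows of RefSeq sequence on GRCm38.p6 at chr2:156775284-156775433 (Myl9), chr10:79988450-79988599 (Cnn2) and chr14:20929158-20929307 (Vcl), all on the plus strand.
Myl9: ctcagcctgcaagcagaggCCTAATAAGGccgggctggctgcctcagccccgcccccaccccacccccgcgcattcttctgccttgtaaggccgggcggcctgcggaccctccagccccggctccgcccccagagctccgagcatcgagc
Cnn2: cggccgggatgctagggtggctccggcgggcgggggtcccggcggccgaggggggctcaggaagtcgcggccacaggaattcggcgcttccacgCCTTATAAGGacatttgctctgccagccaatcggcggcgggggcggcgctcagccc
Vcl: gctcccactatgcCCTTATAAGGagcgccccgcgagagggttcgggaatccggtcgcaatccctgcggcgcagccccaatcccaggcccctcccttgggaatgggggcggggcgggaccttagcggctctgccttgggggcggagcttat
The box begins 161, 56 and 227 bases before the start site of Myl9, Cnn2 and Vcl. For 2 Yap targets, capitals mark CATTCC, the letters of Tead sites, on either strand, in windows at chr3:145649986-145650135 (Cyr61, listed as Ccn1) and chr19:36119915-36120064 (Ankrd1), both on the minus strand.
Cyr61: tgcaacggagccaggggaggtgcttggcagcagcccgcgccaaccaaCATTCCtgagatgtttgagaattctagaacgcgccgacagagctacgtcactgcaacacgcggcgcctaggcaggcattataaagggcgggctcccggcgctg
Ankrd1: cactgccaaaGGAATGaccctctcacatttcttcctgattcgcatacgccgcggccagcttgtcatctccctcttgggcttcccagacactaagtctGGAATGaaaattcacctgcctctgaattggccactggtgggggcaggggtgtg
The letters begin 103 bases before the start site of Cyr61, and 210 and 123 bases before that of Ankrd1. CArG boxes were found in 4 of 32 promoters of 26 contractile genes (12.5%), against 1.63% of all promoters, and CATTCC in 13 of these 32 (40.6%). Of 21 promoters of 17 Yap and Tead genes 13 held CATTCC (61.9%), against 14.7% of all promoters. These shares describe lists chosen by function and show no binding.

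**Figure D4:**
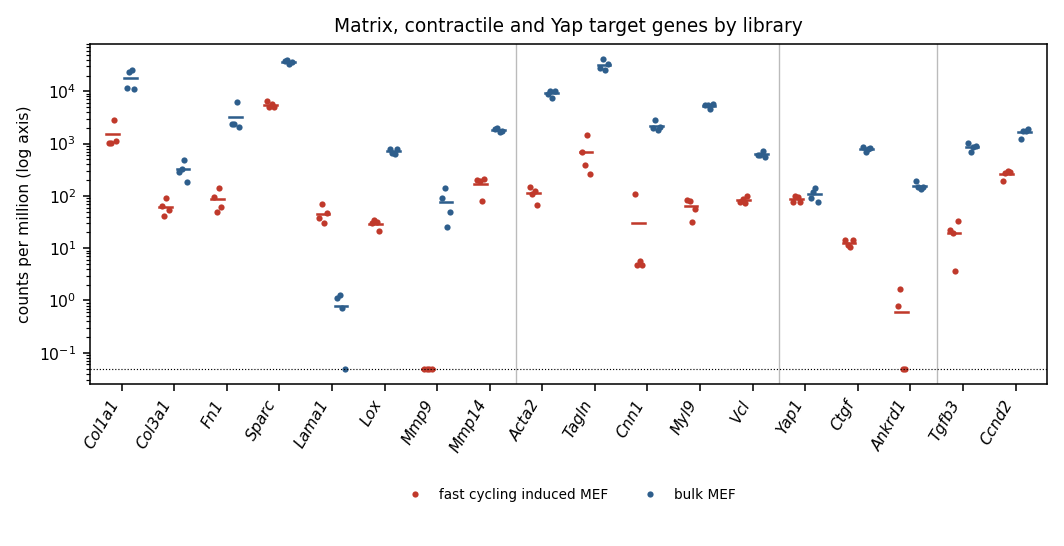
Points are the CPM of each library on a log axis, with fast MEF in red to the left and bulk MEF in blue to the right of each gene, short lines are group means, and values under the dotted line at 0.05 CPM, zeros included, are drawn on it. Acta2 and Myl9 are far lower in all fast MEF libraries, Yap1 overlaps between the groups, Cnn1 has a single high fast MEF library and Lama1 is higher in fast MEF.

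Surface and cytoskeletal markers of fibroblasts fell with the matrix. Of 26 such genes 17 fell and 4 rose, the latter near the 16.5% of all tested genes, with a median log2 fold change of -2.32. Thy1, a surface protein by which fibroblasts are often followed during reprogramming, had 225, 223, 472 and 179.7 CPM in fast MEF, against 4051, 4604, 3613 and 3981 CPM in bulk MEF (log2 fold change -3.89 ± 0.32, adjusted p = 1.2e-05). Vim, which encodes the intermediate filament vimentin, had 145, 159.6, 225 and 139.9 CPM in fast MEF, against 3179, 3942, 2741 and 3151 CPM in bulk MEF (log2 fold change -4.28 ± 0.23, adjusted p = 8.1e-07). Pdgfrb, the receptor of platelet-derived growth factor B, had 40.7, 14.5, 56.2 and 18.9 CPM in fast MEF, against 639, 540.0, 965 and 583 CPM in bulk MEF (log2 fold change -4.39 ± 0.46, adjusted p = 6.6e-05). Pdgfra, its relative, did not pass and was at 6.15, 8.87, 9.75 and 7.86 CPM in fast MEF, against 29.1, 10.1, 5.22 and 7.14 CPM in bulk MEF (log2 fold change -0.66 ± 0.59, adjusted p = 0.416, and 0.12 without bulk MEF replicate 1). The mesenchymal cadherins Cdh2 and Cdh11 fell, with log2 fold changes of -2.47 ± 0.27 and -4.02 ± 0.34 (adjusted p = 8.4e-05 and 1.5e-05), the hyaluronan receptor Cd44 fell by 1.38 ± 0.19 (adjusted p = 0.00038) and the galectin Lgals1 fell by 4.87 ± 0.30 (adjusted p = 1.9e-06). Of 13 integrins 7 fell and 2 rose, the latter again near the 16.5% of all tested genes. Itga5, the alpha chain of the fibronectin receptor, had 47.2, 53.03, 51.9 and 40.7 CPM in fast MEF, against 630.3, 627, 986 and 712 CPM in bulk MEF (log2 fold change -3.94 ± 0.24, adjusted p = 1.6e-06). Its partner Itgb1 fell by 2.81 ± 0.21 (adjusted p = 5.9e-06) and Itgb3, a chain of vitronectin receptors, fell by 1.57 ± 0.32 (adjusted p = 0.00375), while the 2 that rose were Itga6 and Itgb4 of hemidesmosomes. Cd44, Cdh2 and Itgb3 did not pass in the fit over all 24 libraries (adjusted p = 0.103, 0.0617 and 0.0799).

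Secreted factors were lower too, while few interferon genes moved. Of 30 secreted inflammatory and senescence factors 15 could be tested, of which 11 fell and 0 rose, with a median log2 fold change of -2.73. Factors near 0 in fast MEF could be tested only where bulk MEF held them, which favours genes that fell. Csf1, the growth factor of macrophages, had 12.004, 16.2, 31.9 and 31.9 CPM in fast MEF, against 1780.2, 1869.9, 1602 and 2003 CPM in bulk MEF (log2 fold change -6.30 ± 0.38, adjusted p = 1.6e-06). Cxcl12, a chemokine of stromal cells, fell by 3.15 ± 0.58 (adjusted p = 0.00214, and 0.109 in the fit over all 24 libraries). Of 16 genes of the insulin-like growth factor axis 7 fell and 1 rose. The ligand Igf2 had 1077, 742, 968 and 1171 CPM in fast MEF, against 635, 549, 469.7 and 639 CPM in bulk MEF (log2 fold change 0.79 ± 0.20, adjusted p = 0.0121). The binding proteins Igfbp7 and Igfbp2 fell, with log2 fold changes of -5.66 ± 0.53 and -6.70 ± 0.84 (adjusted p = 3.1e-05 and 0.00019), and Igfbp3 did not pass (log2 fold change 0.86 ± 0.60, adjusted p = 0.295). Of 16 interferon response genes tested 0 fell, against 18.4% of all tested genes, and the median was -0.15. Only 2 rose, a share near the 16.5% of all tested genes. They were Trim25, a ubiquitin ligase of RNA sensing, which rose by 1.59 ± 0.42 (adjusted p = 0.0128), and Xaf1, which had 13.5, 24.3, 19.9 and 6.58 CPM in fast MEF, against 0.335, 0.524, 4.98 and 0.251 CPM in bulk MEF (log2 fold change 3.39 ± 0.98, adjusted p = 0.0211). Xaf1 lost its call without fast MEF replicate 2 or bulk MEF replicate 2 (adjusted p = 0.0525 and 0.0512), and its log2 fold change was 5.37 without bulk MEF replicate 3 (adjusted p = 0.00094). Of 12 MHC class I and antigen presentation genes 5 fell and 0 rose, but 2 fell without any 1 of the fast MEF libraries. B2m, the light chain of class I molecules, had 68.5, 62.0, 47.1 and 59.3 CPM in fast MEF, against 145, 185, 86.7 and 149 CPM in bulk MEF (log2 fold change -1.25 ± 0.29, adjusted p = 0.00742). Calr, a chaperone of the endoplasmic reticulum on that list, fell by 1.93 ± 0.23 (adjusted p = 0.00014). Igf2, Trim25, Xaf1 and B2m did not pass in the fit over all 24 libraries (adjusted p = 0.279, 0.0731, 0.0648 and 0.0665). Macrophage and blood markers fell beside the secreted and antigen presentation genes, and their part in these counts was not tested.

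Most lysosome and autophagy genes fell, and the stress lists moved in different directions. Of 26 lysosome and autophagy genes 22 fell and 1 rose, with a median log2 fold change of -2.31. Ctsb and Ctsd, cathepsin proteases, fell, and Ctsd had 1071, 731, 775 and 710.3 CPM in fast MEF, against 4145, 4093, 3448 and 4669 CPM in bulk MEF (log2 fold change -2.31 ± 0.19, adjusted p = 1.4e-05), while Ctsb fell by 2.48 ± 0.20 (adjusted p = 1e-05). Psap, the precursor of the saposins, had 103, 104, 97.1 and 132 CPM in fast MEF, against 944, 875, 761 and 728 CPM in bulk MEF (log2 fold change -2.92 ± 0.21, adjusted p = 4.4e-06). Sqstm1, which encodes the autophagy receptor p62, had 328, 396, 343 and 539 CPM in fast MEF, against 2165, 2402, 1965 and 2558 CPM in bulk MEF (log2 fold change -2.50 ± 0.21, adjusted p = 1.6e-05). The gene that rose was Tfeb, a transcription factor that drives lysosome genes, and it had 145, 102, 208 and 89.4 CPM in fast MEF, against 2.23, 30.1, 32.6 and 4.89 CPM in bulk MEF (log2 fold change 2.96 ± 0.76, adjusted p = 0.0121). The number that fell was 22 when any single library was left out. Macrophages are rich in lysosomes, and 6 of 9 tested macrophage and blood markers were lower beside them, but their part was not tested. Of 21 genes of the unfolded protein and amino acid stress responses 12 fell and 0 rose, and 7 fell without fast MEF replicate 2. Ddit3, which encodes Chop, had 5.66, 0.934, 4.15 and 2.82 CPM in fast MEF, against 73.9, 126, 65.4 and 52.0 CPM in bulk MEF (log2 fold change -4.55 ± 0.58, adjusted p = 0.00023). Xbp1 fell by 2.86 ± 0.32 (adjusted p = 9e-05) and Hspa5, the chaperone BiP, fell by 0.79 ± 0.19 (adjusted p = 0.00804). Of 18 heat shock and antioxidant genes 6 rose and 2 fell, against 16.5% and 18.4% of all tested genes. The mitochondrial chaperone Hspd1 rose by 1.42 ± 0.23 (adjusted p = 0.00104) and the cytosolic Hsp90aa1 by 0.87 ± 0.19 (adjusted p = 0.0049), while Hmox1, the haem oxygenase, fell by 2.50 ± 0.31 (adjusted p = 0.00017). In the fit over all 24 libraries Tfeb, Hspa5, Hmox1 and Hsp90aa1 did not pass (adjusted p = 0.11, 0.231, 0.066 and 0.0956).

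Of 25 genes of glycolysis and glucose uptake 8 fell and 4 rose, with a median log2 fold change of -0.46. The share that rose was near the 16.5% of all tested genes. Aldoa, the muscle-type aldolase, had 1604, 1077, 1334 and 1550.0 CPM in fast MEF, against 4655, 3709, 3678 and 5028 CPM in bulk MEF (log2 fold change -1.62 ± 0.19, adjusted p = 0.00013). Pkm2, the file's name for the muscle pyruvate kinase gene, and Ldha, a lactate dehydrogenase, fell, with log2 fold changes of -0.76 ± 0.16 and -0.75 ± 0.17 (adjusted p = 0.00388 and 0.00575). Hk2, an inducible hexokinase, rose by 1.28 ± 0.32 (adjusted p = 0.00973), and the glucose transporter Slc2a1 did not pass (log2 fold change 0.26 ± 0.29, adjusted p = 0.519). Of 45 subunits of oxidative phosphorylation 9 fell and 1 rose, close to the share of all genes that fell. Uqcrc1, of complex III, fell by 1.28 ± 0.28 (adjusted p = 0.0049). Of 27 genes of cholesterol synthesis and uptake 8 fell and 1 rose. Fdps, which makes farnesyl diphosphate, had 58.7, 57.6, 72.6 and 68.6 CPM in fast MEF, against 320.5, 382, 195 and 288 CPM in bulk MEF (log2 fold change -2.20 ± 0.26, adjusted p = 0.00015). Cyp51, a sterol demethylase, fell by 1.84 ± 0.35 (adjusted p = 0.00252). Pkm2, Ldha, Hk2 and Uqcrc1 did not pass in the fit over all 24 libraries (adjusted p = 0.207, 0.395, 0.269 and 0.146).

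Genes that copy and edit chromatin marks were higher in part. Of 14 DNA methylation genes 7 rose and 0 fell, with a median log2 fold change of 1.16. Dnmt1, which copies methylation after replication, had 160.1, 210.0, 332 and 288 CPM in fast MEF, against 33.6, 46.4, 54.7 and 24.2 CPM in bulk MEF (log2 fold change 2.64 ± 0.35, adjusted p = 0.00028). Uhrf1, which guides Dnmt1 to hemimethylated DNA, rose by 2.59 ± 0.47 (adjusted p = 0.00188). Tet2, an enzyme that oxidises methylcytosine, had 75.9, 144, 87.3 and 95.7 CPM in fast MEF, against 4.02, 2.41, 6.29 and 4.26 CPM in bulk MEF (log2 fold change 4.57 ± 0.42, adjusted p = 2.5e-05). The de novo enzyme Dnmt3b had 7.32, 8.87, 6.64 and 13.6 CPM in fast MEF, against 0.223, 0.21, 1.90 and 0 CPM in bulk MEF (log2 fold change 3.94 ± 1.05, adjusted p = 0.0142), with a log2 fold change of 5.82 without bulk MEF replicate 3. Of 32 Polycomb and chromatin remodeller genes 12 rose and 3 fell, and 7 rose without fast MEF replicate 4. Ezh2, the methyltransferase of Polycomb complex PRC2, had 169.8, 169, 152 and 152 CPM in fast MEF, against 20.4, 11.2, 9.97 and 26.9 CPM in bulk MEF (log2 fold change 3.23 ± 0.37, adjusted p = 0.00011). Chd1, a remodeller of open chromatin, rose by 1.71 ± 0.33 (adjusted p = 0.00285, and 0.192 in the fit over all 24 libraries). Hmga2, an architectural factor of fetal mesenchyme, fell and had 25.7, 42.5, 13.5 and 33.0 CPM in fast MEF, against 338, 285, 245 and 286 CPM in bulk MEF (log2 fold change -3.33 ± 0.36, adjusted p = 7.5e-05). Of 24 Hox and limb patterning genes tested 4 fell and 1 rose, near the share of all genes that fell. The gene that rose was Hoxa9, by 2.40 ± 0.52 (adjusted p = 0.00513, and 0.235 in that wider fit), and Hoxb9 fell by 4.06 ± 0.38 (adjusted p = 3e-05).

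Imprinted genes, which are expressed from the allele of a single parent, moved both ways, with 11 of 21 tested lower and 5 higher. Shares over all tested genes were 18.4% lower and 16.5% higher. Meg3, a maternally expressed long RNA, had 14.1, 16.99, 25.5 and 28.7 CPM in fast MEF, against 189, 385, 608 and 151 CPM in bulk MEF (log2 fold change -3.97 ± 0.49, adjusted p = 0.00018). H19, a maternally expressed long RNA beside Igf2, had 199, 145, 251 and 183 CPM in fast MEF, against 423, 400.3, 435 and 473 CPM in bulk MEF (log2 fold change -1.15 ± 0.22, adjusted p = 0.00242), whereas Igf2 rose. Gnas and Grb10 fell, with log2 fold changes of -1.800 ± 0.17 and -0.92 ± 0.22 (adjusted p = 2.6e-05 and 0.00862) and the paternally expressed Mest rose by 1.81 ± 0.36 (adjusted p = 0.00299). Phlda2, a maternally expressed brake on placental growth, had 36.1, 40.7, 115 and 24.7 CPM in fast MEF and no count in any bulk MEF library, at least 513-fold higher. H19, Grb10 and Mest did not pass in the fit over all 24 libraries (adjusted p = 0.393, 0.499 and 0.156).

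The medium of fast MEF held LIF, which signals through Stat3. Of 22 genes of LIF, Stat3 and Erk feedback 8 fell and 3 rose, with a median log2 fold change of -0.76. The share that rose was near the 16.5% of all tested genes. Cish, an inhibitor that cytokines induce through Stat factors, had 34.9, 37.7, 37.1 and 43.6 CPM in fast MEF, against 4.69, 4.82, 0.949 and 1.13 CPM in bulk MEF (log2 fold change 3.71 ± 0.61, adjusted p = 0.00104). Socs3, the inhibitor that Stat3 induces, had 36.7, 58.3, 159 and 72.7 CPM in fast MEF, against 20.0, 143, 30.1 and 15.0 CPM in bulk MEF, and did not pass (adjusted p = 0.517). Bulk MEF replicate 2 alone was high for Socs3, and without it the log2 fold change was 1.90 (adjusted p = 0.0235). Stat3 fell by 1.10 ± 0.22 (adjusted p = 0.0035) and Dusp6, a phosphatase induced by Erk that shuts Erk off, had 2.44, 3.55, 1.24 and 3.68 CPM in fast MEF, against 61.4, 28.5, 65.0 and 51.9 CPM in bulk MEF (log2 fold change -4.21 ± 0.49, adjusted p = 0.00012). Stat3 and Cish did not pass in the fit over all 24 libraries (adjusted p = 0.129 and 0.0573). Of 19 immediate early genes 6 fell and 1 rose, and 3 fell without fast MEF replicate 2.

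Markers of other cell types were counted to see what the fast MEF libraries held. A marker near 0 in a group could be tested only where the other group held it, so counts of tested markers favour genes that changed. Of 24 neural genes 9 could be tested, with 5 higher and 1 lower. Stmn2, a tubulin-binding protein of growing axons, had 3805, 2854, 3869.8 and 3485 CPM in fast MEF, against 5.80, 2.41, 8.31 and 2.76 CPM in bulk MEF (log2 fold change 9.50 ± 0.48, adjusted p = 7e-07). Nefl, the light chain of neurofilaments, had 766, 899, 977 and 635 CPM in fast MEF, against 0.223, 0.524, 0.356 and 0.251 CPM in bulk MEF (log2 fold change 11.17 ± 0.37, adjusted p = 5.7e-08). Both were high in all fast MEF libraries and near background in bulk MEF. Tubb3, a neuronal tubulin, rose by 2.03 ± 0.32 (adjusted p = 0.00078, and 0.0695 in the fit over all 24 libraries). Tubb2b fell by 1.16 ± 0.28 (adjusted p = 0.0094, and 0.383 in that fit) and Nes, of neural progenitors, did not pass (log2 fold change -0.44 ± 0.35, adjusted p = 0.354). Pax6, a defining factor of neural progenitors, was too low to test and at most 0.427 CPM in fast MEF. Of 15 epidermal keratinocyte markers 9 could be tested, of which 7 rose and 0 fell. Sfn, an epithelial 14-3-3 protein, had 3615, 1869, 3652 and 3196 CPM in fast MEF, against 87.2, 66.4, 78.7 and 76.3 CPM in bulk MEF (log2 fold change 5.32 ± 0.27, adjusted p = 6.6e-07). Trp63, the master regulator of stratified epithelium, had 0, 0, 1.24 and 0 CPM in fast MEF and no count in bulk MEF, and Krt5 was too low to test in either group. Of 14 endothelial markers 7 could be tested, of which 2 rose and 2 fell, against 16.5% and 18.4% of all tested genes. Tek, an angiopoietin receptor, had 19.03, 32.3, 28.0 and 30.3 CPM in fast MEF and 3 counts in bulk MEF, a ratio of 319.8 with a 95% interval of 109 to 1553, while the Vegf receptor Flt1 fell by 1.06 ± 0.26 (adjusted p = 0.00905, and 0.58 in the wider fit). Among macrophage genes, C1qc, a subunit of complement C1q, had 0, 3.17, 0 and 7.52 CPM in fast MEF, against 88.7, 178, 107 and 175 CPM in bulk MEF (log2 fold change -5.61 ± 1.14, adjusted p = 0.00358). Lyz2, the macrophage lysozyme, fell by 4.24 ± 0.94 (adjusted p = 0.00584) and C1qa fell by 5.65 ± 1.03 (adjusted p = 0.00193). Csf1r, the receptor of Csf1, fell by 4.18 ± 1.24 (adjusted p = 0.0234), a call that was lost without fast MEF replicate 1, fast MEF replicate 4 or bulk MEF replicate 4 (adjusted p = 0.0608, 0.0611 and 0.0746). Its log2 fold change was -5.27 without fast MEF replicate 2. Ptprc, the pan-leukocyte marker, was too low to test, with 1.07, 0.187, 1.24 and 0 CPM in fast MEF, against 0.112, 2.83, 1.07 and 0.501 CPM in bulk MEF. C1qa and C1qc did not pass in the wider fit (adjusted p = 0.0573 and 0.0657), and the log2 fold changes without fast MEF replicate 4 were -6.86 for C1qc and -4.95 for Lyz2, and -6.52 for C1qa without fast MEF replicate 2.

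Several of the 12 genes with the highest fold changes had no count at all in bulk MEF. Pou4f2, a POU factor of retinal ganglion cells, had 162, 118, 246 and 187 CPM in fast MEF and was at least 1954-fold higher. Alox12b, a lipoxygenase of the epidermal barrier, had 132, 57.7, 42.3 and 74.2 CPM in fast MEF and was at least 945-fold higher. Kiss1r, the kisspeptin receptor, had 120.3, 46.2, 42.9 and 47.2 CPM and was at least 772-fold higher, with fast MEF replicate 1 well above the others. These genes were not detected in bulk MEF at this depth. Their presence in all fast MEF libraries follows from the choice of genes whose groups did not overlap. Osbp2, an oxysterol-binding protein, was at least 741-fold higher, the homeobox gene Tlx2 at least 614-fold and the chloride channel gene Clic3 at least 559.8-fold. Nova2, a neuronal splicing factor, had 174, 163, 147 and 214 CPM in fast MEF and 1 count in bulk MEF, a ratio of 6285 with a 95% interval of 1128 to 248270.0, and Dpysl5, of axon guidance, had 381, 334, 392.02 and 275 CPM in fast MEF and 3 counts in bulk MEF, a ratio of 3911 with a 95% interval of 1338 to 18967. The other 4 of the 12 were Dsc2, Phlda2, Krt6b and Krt14.

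The 12 lowest fold changes were led by Mmp9, and most rested on a few or no counts in fast MEF. Slc16a11, a carrier of monocarboxylates, had no count in fast MEF, against 2.12, 4.30, 6.65 and 72.2 CPM in bulk MEF, at least 248-fold lower, with a single high bulk MEF library. Siglecg, a sialic acid receptor of B cells, had 0, 0, 0.83 and 0 CPM in fast MEF, against 89.0, 159.9, 101 and 118 CPM in bulk MEF (log2 fold change -9.76 ± 0.99, adjusted p = 4.8e-05). Hlx, a homeobox factor of mesenchyme and blood, had 3 counts in fast MEF, against 100.1, 24.2, 107 and 51.1 CPM in bulk MEF, a ratio of bulk MEF to fast MEF of 871 with a 95% interval of 298 to 4228. Fjx1, a secreted regulator of cell polarity, had 0, 0.84, 0 and 0 CPM in fast MEF, against 89.9, 56.1, 89.1 and 55.6 CPM in bulk MEF (log2 fold change -8.20 ± 1.01, adjusted p = 0.00018). That these genes were present in every bulk MEF library follows from the choice of genes whose groups did not overlap. The ratios of bulk MEF to fast MEF were 959 with a 95% interval of 172 to 37908 for 6230427J02Rik and 314 with a 95% interval of 107 to 1526 for Lce1h. Gng8 and Gnb4, subunits of G proteins, fell, with log2 fold changes of -8.06 ± 1.297 and -7.68 ± 1.07 (adjusted p = 0.00093 and 0.00038), and Micall2 and the phosphatase gene Dusp23 had values of -7.26 ± 1.09 and -7.24 ± 1.66 (adjusted p = 0.0006 and 0.00688). Without bulk MEF replicate 2 the log2 fold change of Dusp23 was -3.77, that of Gnb4 was -6.98 and that of Micall2 was -6.20 without bulk MEF replicate 3. That of Gng8 was -7.19 without bulk MEF replicate 1, and that of Siglecg was -13.11 without fast MEF replicate 3. Without fast MEF replicate 4 it was -9.21 for Gng8 and -9.05 for Gnb4, without fast MEF replicate 1 -8.01 for Micall2, and without fast MEF replicate 2 -12.29 for Fjx1. The remaining gene of the 12 was Ankrd1.

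The same genes were read in the 4 slow cycling libraries of the induced culture and in 4 iPS libraries, as levels scaled over these 16 libraries, with no test. The slow cycling cells had the same 6 days of induction and 48 hours of dye dilution as fast MEF, and the iPS cells were grown without doxycycline. Sox2 averaged 319.8 CPM in fast MEF (range 214 to 449), 9.93 CPM in slow cycling induced MEF (range 4.14 to 19.3), 657 CPM in iPS (range 417 to 905) and 1.61 CPM in bulk MEF (range 0.124 to 5.00). Krt14 averaged 10662 CPM in fast MEF (range 6747 to 13362), 265 CPM in slow cycling induced MEF (range 39.3 to 639), 3.35 CPM in iPS (range 1.42 to 8.41) and 3.22 CPM in bulk MEF (range 1.61 to 7.71). Both genes were lower in slow cycling induced MEF than in fast MEF, but on average above bulk MEF, and their order in iPS differed. Nanog averaged 1.58 CPM in fast MEF (range 0.676 to 3.37), 0.188 CPM in slow cycling induced MEF (range 0 to 0.753), 42.8 CPM in iPS (range 40.9 to 45.3) and 0.141 CPM in bulk MEF (range 0 to 0.357). Mcm5 averaged 312 CPM in fast MEF (range 281 to 335), 22.3 CPM in slow cycling induced MEF (range 14.8 to 39.8), 1028 CPM in iPS (range 868 to 1294) and 72.4 CPM in bulk MEF (range 42.5 to 135). Acta2 averaged 109 CPM in fast MEF (range 67.1 to 145), 2058 CPM in slow cycling induced MEF (range 1805 to 2478), 102 CPM in iPS (range 7.01 to 292) and 9178 CPM in bulk MEF (range 7555 to 10146). For Acta2 the slow cycling libraries lay between fast MEF and bulk MEF, with no overlap with either. Fn1 averaged 85.4 CPM in fast MEF (range 48.8 to 136), 2009.8 CPM in slow cycling induced MEF (range 1737 to 2439), 397 CPM in iPS (range 279 to 551) and 3225 CPM in bulk MEF (range 2067 to 6138). Col1a1 averaged 1459 CPM in fast MEF (range 1002 to 2687), 39676 CPM in slow cycling induced MEF (range 28419.9 to 47376), 100.3 CPM in iPS (range 32.0 to 212) and 17893 CPM in bulk MEF (range 11057 to 25600.4). Slow cycling and bulk MEF libraries overlapped for Fn1 and did not for Col1a1, which was highest in slow cycling induced MEF. Nefl averaged 802 CPM in fast MEF (range 628 to 934), 12.1 CPM in slow cycling induced MEF (range 0.502 to 41.3), 46.8 CPM in iPS (range 31.5 to 81.9) and 0.337 CPM in bulk MEF (range 0.222 to 0.521). Dsp averaged 547 CPM in fast MEF (range 522 to 577), 16.9 CPM in slow cycling induced MEF (range 2.76 to 28.9), 43.0 CPM in iPS (range 18.1 to 109) and 2.28 CPM in bulk MEF (range 0 to 8.57). Both Nefl and Dsp were higher in every fast MEF library than in any library of the other 3 groups.

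**Figure D5:**
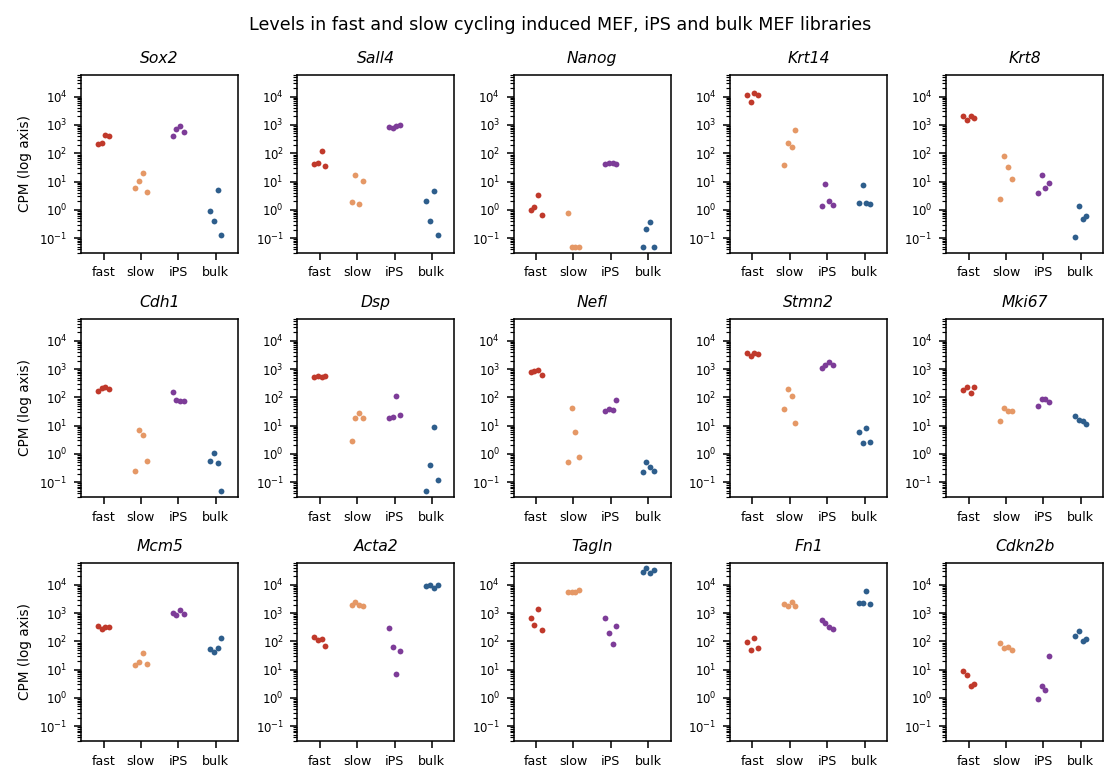
Each panel gives the CPM of a gene in 4 libraries of fast MEF (red), slow cycling induced MEF (orange), iPS (purple) and bulk MEF (blue) on a log axis, scaled over the 16 libraries, with values under 0.05 CPM drawn at 0.05. Krt14, Krt8 and Dsp are highest in fast MEF, Nanog and Sall4 are highest in iPS, and Acta2 and Tagln are highest in bulk MEF.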

How the data were processed

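The deposited table holds whole-number counts of reads, not normalized by the authors, for 23283 gene symbols in 24 libraries. TopHat2 2.0.4, HTSeq, CASAVA 1.8.2 and the mouse build mm9 are named, per the submitters' processing notes. What each did, with which settings, annotation and strand, is not given in the sources used here, so counts of genes that overlap, have antisense partners or have near-identical copies are uncertain.

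From the counts, the 8 fast and bulk MEF libraries, with 4937453 to 12028033 counts each, were fitted in R 4.3.3 with edgeR 4.0.16 (TMM factors, filterByExpr, robust quasi-likelihood F test, two-sided). P-values were adjusted by the Benjamini-Hochberg method over the 11335 genes tested, at a threshold of 0.05. Of all genes, 5027 had no count in the 8 libraries. A standard error is the size of the log2 fold change over the square root of F. Folds against a group without counts used a floor of 3 counts over the group. No 2 of the libraries held identical values, and each pair of replicates differed beyond counting noise. Alternatives used DESeq2 1.42.0 and limma 3.58.1, other scaling factors and filters, thinned counts, a block for the replicate number, all 24 libraries, and each library left out in turn.

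Of 1161 members of 45 gene lists, 1154 were matched by symbol and 5 by synonym, and 992 were tested. The comparison, the lists and the named genes were chosen with earlier results of these data known, so lists are described by counts and medians without a test. Named genes were chosen members of the lists, the 12 highest and 12 lowest fold changes among called genes whose groups did not overlap and whose higher group averaged at least 20 CPM, and for each list the 2 called members of smallest p in the leading direction and 1 in the other, and some of these are not reported here. Promoters came from RefSeq on GRCm38.p6, another build than that of the authors, and were matched by symbol. Figures were drawn with matplotlib 3.10.9 under Python 3.11.15.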

Additional observations from a re-analysis of the deposited data

Results flagged for a closer look

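For each named gene, a library was picked out when its gap to the nearest of the other 3 libraries of its group took up a larger part of the group's range than Dixon's critical value for 4 values at the 95% level, in groups averaging at least 1 CPM. For normally distributed values chance alone would flag about 1 in 20 groups. The rule was applied to CPM, which need not be so distributed, and the rate for them was not tested. Of 396 pairs of gene and group, 35 were picked out, 17 in fast MEF and 18 in bulk MEF, with 9 in fast MEF replicate 3 and 9 in bulk MEF replicate 3. In the values here, the range of the other 3 libraries of the same group stands in brackets.

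Fast MEF replicate 1 stood apart for Slc2a3 at 146 CPM (177 to 183 CPM), Cnn1 at 106 CPM (4.67 to 5.81 CPM) and Kiss1r at 120.3 CPM (42.9 to 47.2 CPM). Fast MEF replicate 2 stood apart for Plk3 at 4.39 CPM (7.26 to 7.52 CPM), Cyr61 at 333 CPM (232 to 246 CPM) and Nes at 29.0 CPM (55.1 to 59.9 CPM). Fast MEF replicate 3 stood apart for Sall4 at 122 CPM (36.8 to 46.3 CPM), Cdk6 at 22.6 CPM (7.71 to 9.40 CPM) and Cad at 531 CPM (236 to 281 CPM). The same library also stood apart for Snai2 at 41.3 CPM (2.22 to 3.73 CPM), Col1a1 at 2809.9 CPM (1017 to 1145 CPM) and Col1a2 at 2176 CPM (556 to 633 CPM). Further genes of that library were Mmp14 at 79.6 CPM (191 to 209 CPM), Thy1 at 472 CPM (179.7 to 225 CPM) and Uhrf1 at 825 CPM (447 to 497 CPM). Fast MEF replicate 4 stood apart for Itgb4 at 1656 CPM (1379.8 to 1402 CPM) and Hk2 at 57.1 CPM (44.0 to 44.8 CPM).

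Bulk MEF replicate 1 stood apart for Rrm2 at 74.6 CPM (33.6 to 40.0 CPM), Perp at 7.81 CPM (0.593 to 1.25 CPM) and Itgb4 at 8.60 CPM (0.593 to 1.75 CPM). Bulk MEF replicate 2 stood apart for Krt14 at 7.76 CPM (1.63 to 1.79 CPM), Krt17 at 15.2 CPM (2.23 to 4.26 CPM) and Socs3 at 143 CPM (15.0 to 30.1 CPM). The same library also stood apart for Dusp23 at 133 CPM (2.00 to 4.27 CPM). Bulk MEF replicate 3 stood apart for Sox2 at 4.98 CPM (0.125 to 0.893 CPM), Klf4 at 177 CPM (139 CPM in each) and Klf2 at 31.7 CPM (9.49 to 13.1 CPM). The same library also stood apart for Dsp at 8.54 CPM (0 to 0.419 CPM), Fn1 at 6122 CPM (2096 to 2377 CPM) and Tnc at 2005 CPM (763 to 969.6 CPM). Further genes of that library were Xaf1 at 4.98 CPM (0.251 to 0.524 CPM), Tubb2b at 119 CPM (77.7 to 84.5 CPM) and Micall2 at 57.1 CPM (10.1 to 10.9 CPM). Bulk MEF replicate 4 stood apart for Mcm5 at 137 CPM (42.8 to 56.4 CPM) and Slc16a11 at 72.2 CPM (2.12 to 6.65 CPM).

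Fast MEF replicate 3, the shallowest of these libraries, was the high one for the collagen chains Col1a1 and Col1a2, the fibroblast marker Thy1, the mesenchymal regulator Snai2, and Sall4, Cdk6, Cad and Uhrf1, and the low one for Mmp14. Bulk MEF replicate 3 was the high one in all 9 cases. The part of depth in these values was not tested.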

How the results depend on the processing

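The main count was 3958 genes, 1869 higher and 2089 lower in fast MEF. It stayed between 3213 and 4719 under the other scalings, filters, tools and thinned counts in edgeR, DESeq2 and limma voom, with 4719 calls in DESeq2 and 3213 under a filter of at least 10 CPM in 4 libraries. Leaving out each library in turn gave 3244 to 3941 calls, 1551 to 1895 higher and 1643 to 2046 lower. The fit over all 24 libraries gave 1513 calls, 822 higher and 691 lower, and there 54.3% of the calls were higher, against 47.2%, and the median log2 fold change of all tested genes was 0.12. That fit pools its spread over groups that include the GMP libraries, whose correlation within their groups was lower (0.6537 to 0.8044, against 0.898 to 0.9615 in fast MEF). The cause of its lower count was not tested beyond these values. With the replicate number as a block, 3587 genes were called, 1695 higher and 1892 lower. Deviations of libraries with the same number had correlations of 0.02, -0.05, 0.08 and 0.01 for numbers 1 to 4. For libraries with different numbers they ran from -0.06 to 0.05. The labels do not say that numbers pair libraries, so they were not treated as pairs, although this check could miss a weak pairing. Under the block Trp53 and Csf1r did not pass (adjusted p = 0.0502 and 0.0657 in edgeR). Of 222 tested genes named, 203 were called, and 200 of these kept their call when any 1 library was left out, Trp53, Xaf1 and Csf1r being the exceptions. The fit over all 24 libraries took 56 of the 203 below the threshold. No called gene among those named changed its direction in any alternative. Many of these genes were named for a small adjusted p or an extreme fold change in the same libraries. The counts of kept calls and directions therefore do not measure how stable other calls are. Among genes not called, the log2 fold change of Krt18 ran from -1.11 to 0.34 and that of Pdgfra from -0.93 to 0.12 over the fits that leave out 1 library, both positive without a single bulk MEF library, replicate 4 for Krt18 and replicate 1 for Pdgfra. The cause was not tested.

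In the fit over all 24 libraries, several further list counts moved by more than 1.5 times. The number that fell was 15 of the matrix enzymes (26 in the 8 libraries), 7 of the Tgf-beta pathway genes (11), 7 of the Yap and Tead genes (11), 11 of the fibroblast surface markers (17), 4 integrins (7), 6 secreted factors (11), 2 genes of the insulin-like growth factor axis (7) and 4 imprinted genes (11). It was 1 for glycolysis (8), 0 for oxidative phosphorylation (9), 4 for cholesterol synthesis (8), 3 for unfolded protein stress (12), 3 for antigen presentation (5), 2 for quiescence (9), 1 for immediate early genes (6) and 2 for LIF, Stat3 and Erk feedback (8). The number that rose was 4 for Polycomb and remodeller genes (12), 1 for heat shock and antioxidant genes (6), 1 for imprinted genes (5), 1 for the Tgf-beta pathway (4), 1 for matrix glycoproteins (4) and 3 for neural genes (5). With single libraries left out, 1 to 3 endothelial markers fell (2 in the 8 libraries), 2 to 4 heat shock genes fell (2), and of the interferon genes 1 to 3 rose (2) and 0 to 2 fell (0). Depth limits what can be said of genes too low to test, such as Nanog, Krt5 and Ptprc.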
